A study of Mus musculus with 74 samples.

Results

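The 7 genes described here encode ligands of the tumour necrosis factor (TNF) superfamily: Tnf, Lta, Ltb, Fasl, Tnfsf4, Tnfsf10 and Tnfsf11. They were chosen by name, through the gene symbol that the array platform gives each probe. All 7 were found, with 1 probe each, among 13409 distinct genes on the array. The data are 74 mouse 2-colour arrays in 11 groups, on which the RNA of one sample was labelled with Cy5 and that of its partner with Cy3, or the reverse. Every value is a log2 ratio of the test RNA over its partner, centred on the median of its array, so a value of 1 is a doubling relative to the partner and no value is an absolute level. The series addresses which genes HDAC7, its partner MEF2D and the orphan receptor Nur77 control during thymic selection.

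Of these groups, 7 used DO11.10 hybridoma cells, a T cell line with one fixed T cell receptor, always with untreated cells of the same line as the partner. Cells carrying the empty retrovirus MSCV formed a first set of 12 arrays (empty virus A) and a second of 4 arrays (empty virus B). Cells carrying HDAC7-VP16, HDAC7 joined to a viral activation domain, filled 10 arrays. Empty-virus cells treated with PMA and ionomycin for 2.5 h filled 8 arrays, and so did equally treated cells with the construct that the labels call HDAC7 DP. PMA and ionomycin mimic T cell receptor signals. MEF2D-VP16 and Nur77 cells filled 4 arrays each. The other 4 groups held 6 arrays each of total thymocytes. One compared DO11.10 T cell receptor transgenic mice with mhc -/- mice, whose thymocytes meet no major histocompatibility complex ligand. The remaining groups compared DO11.10 mice given antigenic peptide 3 h, 6 h or 12 h earlier with uninjected DO11.10 mice. The sources used here do not give age, strain, pooling of animals, the share of cells carrying a virus or the meaning of DP. Because a ratio gives no level, the presence or absence of a cell type could not be read from its defining markers.

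TNF superfamily ligands are mostly membrane-bound trimers, some of which are also shed, and they bind receptors of the TNF receptor superfamily. Receptors with a death domain can start apoptosis, and many receptors of the family recruit TRAF adaptors and switch on the transcription factor NF-kB. In activated T cells, several ligand genes are early targets of NFAT, AP-1 and NF-kB. In the thymus, TNF, the lymphotoxins and RANKL (the product of Tnfsf11) carry signals from thymocytes to medullary epithelial cells, while FasL and TRAIL have been studied as death ligands in the removal of self-reactive cells.

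The stretches of 250 bases before the annotated start are printed for 6 of the 7 members, all but Tnfsf4, because the results turn on genes that rose together with stimulation. They come from RefSeq on build GRCm38.p6 and are written 5′ to 3′ in the direction of the gene. Capitals mark matches on either strand to any of 7 motifs. The motifs searched were the NFAT core GGAAA (held by 55.6% of the same stretch in 32851 promoters), the AP-1 motif TGANTCA (6.75%), the kB motif (3.9%), the MEF2 motif (2.92%), the Nur77 response element AAAGGTCA (1.34%), the EGR motif GCGNGGGCG (4.7%) and the TATA box TATAAA (12.4%). The NFAT core can lie inside a kB match.
Tnf, chr17:35202008-35202257, minus strand: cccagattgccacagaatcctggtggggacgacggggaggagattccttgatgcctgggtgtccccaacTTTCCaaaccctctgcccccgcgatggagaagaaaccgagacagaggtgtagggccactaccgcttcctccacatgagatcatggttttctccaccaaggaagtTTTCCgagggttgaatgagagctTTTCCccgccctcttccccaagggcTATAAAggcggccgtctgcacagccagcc
Lta, chr17:35205352-35205601, minus strand: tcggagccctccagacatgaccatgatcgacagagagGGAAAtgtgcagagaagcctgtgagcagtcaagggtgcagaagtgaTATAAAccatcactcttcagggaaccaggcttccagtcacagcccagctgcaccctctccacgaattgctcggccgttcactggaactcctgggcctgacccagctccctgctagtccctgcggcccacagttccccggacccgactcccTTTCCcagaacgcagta
Ltb, chr17:35194257-35194506, plus strand: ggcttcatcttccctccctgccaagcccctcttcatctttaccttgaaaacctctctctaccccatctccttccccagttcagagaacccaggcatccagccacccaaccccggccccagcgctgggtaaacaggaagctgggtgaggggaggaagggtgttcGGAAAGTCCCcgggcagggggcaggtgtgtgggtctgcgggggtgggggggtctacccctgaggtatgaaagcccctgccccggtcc
Fasl, chr1:161788496-161788745, minus strand: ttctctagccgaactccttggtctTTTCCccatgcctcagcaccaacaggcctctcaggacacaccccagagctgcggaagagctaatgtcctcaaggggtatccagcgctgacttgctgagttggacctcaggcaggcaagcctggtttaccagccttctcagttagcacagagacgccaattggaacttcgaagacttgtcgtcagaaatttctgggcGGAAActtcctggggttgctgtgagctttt
Tnfsf10, chr3:27316827-27317076, plus strand: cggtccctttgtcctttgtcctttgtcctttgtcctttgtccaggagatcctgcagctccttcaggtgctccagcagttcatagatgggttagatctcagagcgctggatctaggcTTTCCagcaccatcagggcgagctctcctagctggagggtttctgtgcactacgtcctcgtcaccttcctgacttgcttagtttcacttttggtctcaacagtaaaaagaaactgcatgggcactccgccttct
Tnfsf11, chr14:78308044-78308293, minus strand: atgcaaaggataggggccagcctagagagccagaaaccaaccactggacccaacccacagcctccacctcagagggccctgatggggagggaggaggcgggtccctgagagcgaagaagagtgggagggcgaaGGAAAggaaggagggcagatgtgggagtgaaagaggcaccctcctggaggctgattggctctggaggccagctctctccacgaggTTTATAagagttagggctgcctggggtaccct
Tnf held 3 NFAT cores between 54 and 181 bases before its start and a TATA box at 29 bases. Lta and Fasl held 2 NFAT cores each, and Ltb, Tnfsf10 and Tnfsf11 held 1 each. The core of Ltb lay inside the single kB match among the 6 stretches, 87 bases before the start. Tnfsf11 had a TATA box at 32 bases and Lta one at 167 bases. The AP-1, MEF2, Nur77 and EGR motifs had 0 matches in these 6 windows, which says only that these letters are not there.

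All 74 arrays held 16463 probes with 0 missing values, and column medians before centring lay between -0.021 and 0.023. In every group the test RNA was in Cy5 on as many arrays as in Cy3. Arrays of opposite orientation correlated positively in 8 of 11 groups, so the deposited values were read as test RNA over partner on every array. The median correlation was -0.40 in empty virus A, -0.48 in HDAC7-VP16 and -0.24 in empty virus B. The direction of empty virus A replicates 3 and 9 was not settled: among pairs of empty virus A and HDAC7-VP16 arrays of one dye orientation, 10 of 55 Cy5 pairs and 8 of 55 Cy3 pairs correlated under -0.3, all of them with one of these arrays. With their sign turned, or without them, the counts of members called with PMA and ionomycin (7) and with HDAC7-VP16 (2) were the same. The direction of the mhc -/- arrays, taken as DO11.10 over mhc -/-, is likely but rests on the data, with Ccr7, a receptor of mature thymocytes, at 2.12 (SE 0.09). A gene is said to rise, fall or change where its adjusted p is under 0.05, with limma and Benjamini-Hochberg adjustment over all 16463 probes. Nothing in the labels ties an array to its own culture or animal, so p-values speak of the variation from array to array, and part or all of it may be technical.

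**Figure D1:**
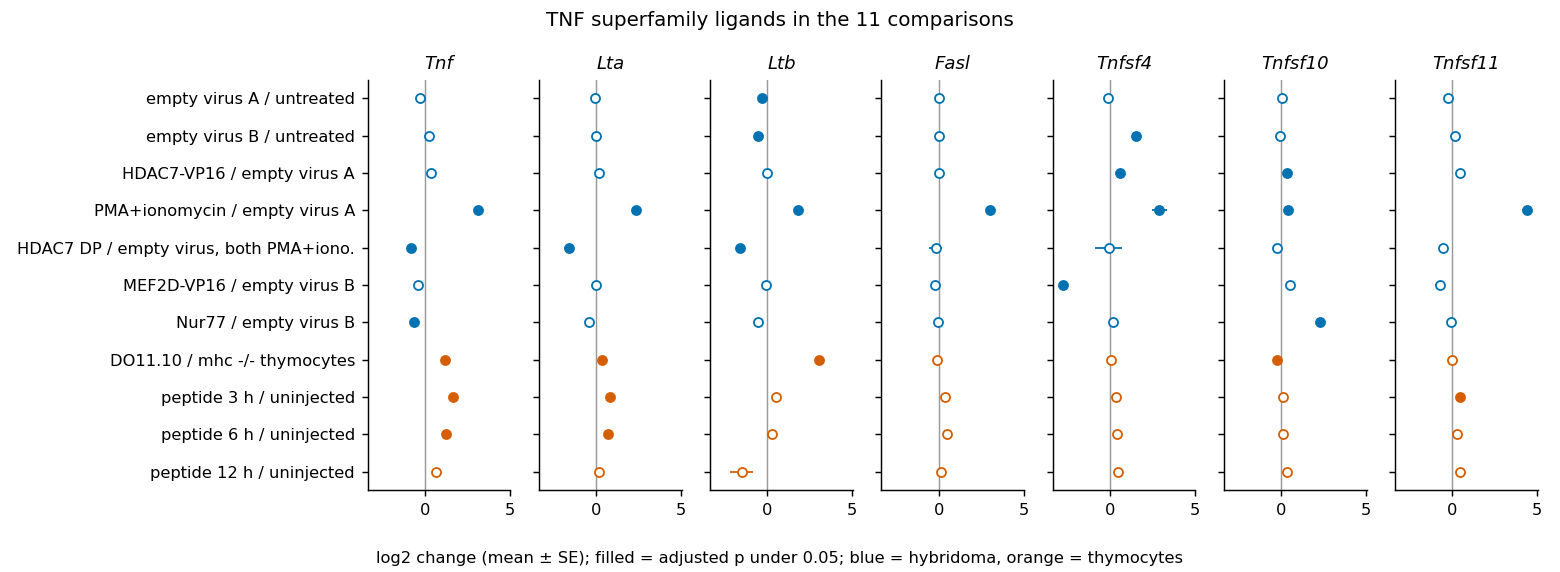
Log2 change with standard error of each ligand gene (x axis) in the 11 comparisons (y axis); blue points are hybridoma comparisons, orange points thymocyte comparisons, and filled points have an adjusted p under 0.05. All 7 points are filled and above 0 with PMA and ionomycin, while 0 of 7 are filled 12 h after peptide.

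PMA and ionomycin raised all 7 ligand genes in empty-virus cells, against 12.5% of all probes called in that comparison. The median log2 change of the members was 2.90, beside -0.01 over all probes. Tnfsf11, whose product RANKL drives osteoclast formation and medullary epithelial maturation, rose most, 21.0-fold. Tnf, Fasl and Tnfsf4 rose 7.44-fold to 8.85-fold, Lta 5.07-fold, Ltb 3.46-fold and Tnfsf10 1.34-fold. The 8 stimulated arrays lay wholly above the 12 unstimulated arrays for each gene except Tnfsf10.

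Among the members made as cytokines, Tnf encodes the founding member of the family. Its log2 ratio to untreated cells ran from -1.40 to 0.64 (median -0.16) in empty virus A and from 2.18 to 3.63 (median 2.87) after stimulation. Its log2 change was 3.15 (SE 0.22, adjusted p = 4.48e-09, limma; 8 of 8 arrays above 0). Lta encodes lymphotoxin alpha, which is secreted or joins the product of Ltb at the membrane. Lta ratios ran from -0.33 to 0.10 (median -0.05) without stimulation and from 1.28 to 3.17 (median 2.35) with it. The log2 change of Lta was 2.34 (SE 0.22, adjusted p = 2.92e-07, limma). Ltb, the membrane partner, lay between -0.64 and -0.15 (median -0.35) without stimulation and between 0.72 and 2.31 (median 1.37) with it. Its log2 change of 1.79 (SE 0.19, adjusted p = 1.55e-06, limma) was the lowest of this trio, which sits side by side on chromosome 17.

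Fasl and Tnfsf10 encode FasL and TRAIL, which bind death-domain receptors. Fasl ratios ran from -0.17 to 0.36 (median -0.02) without stimulation and from 2.15 to 4.11 (median 3.04) with it, a log2 change of 3.01 (SE 0.19, adjusted p = 1.23e-09, limma). Tnfsf10 ratios ran from -0.22 to 0.44 (median -0.02) and from 0.11 to 0.78 (median 0.55), so both groups overlapped. Its log2 change was 0.42 (SE 0.08, adjusted p = 0.001417, limma). The interval of Tnfsf10 (0.25 to 0.59 at 95%) lay below those of the other 6 members, whose lower bounds were 1.39 or more, although the genes were not tested against each other.

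Tnfsf4 encodes OX40 ligand, a costimulatory ligand, and showed the widest spread among stimulated arrays. Its ratios ran from -0.34 to 0.14 (median -0.05) in empty virus A and from 0.68 to 4.62 (median 2.96) after stimulation. The log2 change was 2.90 (SE 0.44, adjusted p = 1.11e-04, limma). The spread followed the slides: the 4 arrays on slides 13 and 14 had a mean of 1.34 and the 4 on slides 15 and 16 a mean of 4.28, with no overlap. On the same slides Fasl had means of 2.46 and 3.62, Lta 1.59 and 2.96, Ltb 0.84 and 2.06, and Tnf 2.53 and 3.21. Tnfsf11 was level between them, at 4.19 and 4.14. What these slides share besides their numbers is not given in the sources used here. Tnfsf11 ratios ran from -1.32 to 1.15 (median -0.36) without and from 3.21 to 5.00 (median 4.21) with stimulation, a log2 change of 4.39 (SE 0.26, adjusted p = 8.44e-10, limma). Within slide series 14 alone Tnfsf4 (2.81, adjusted p = 0.05294) and Tnfsf10 (0.39, adjusted p = 0.1716) were not called, and within series 15 all 7 members were (limma).

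**Figure D2:**
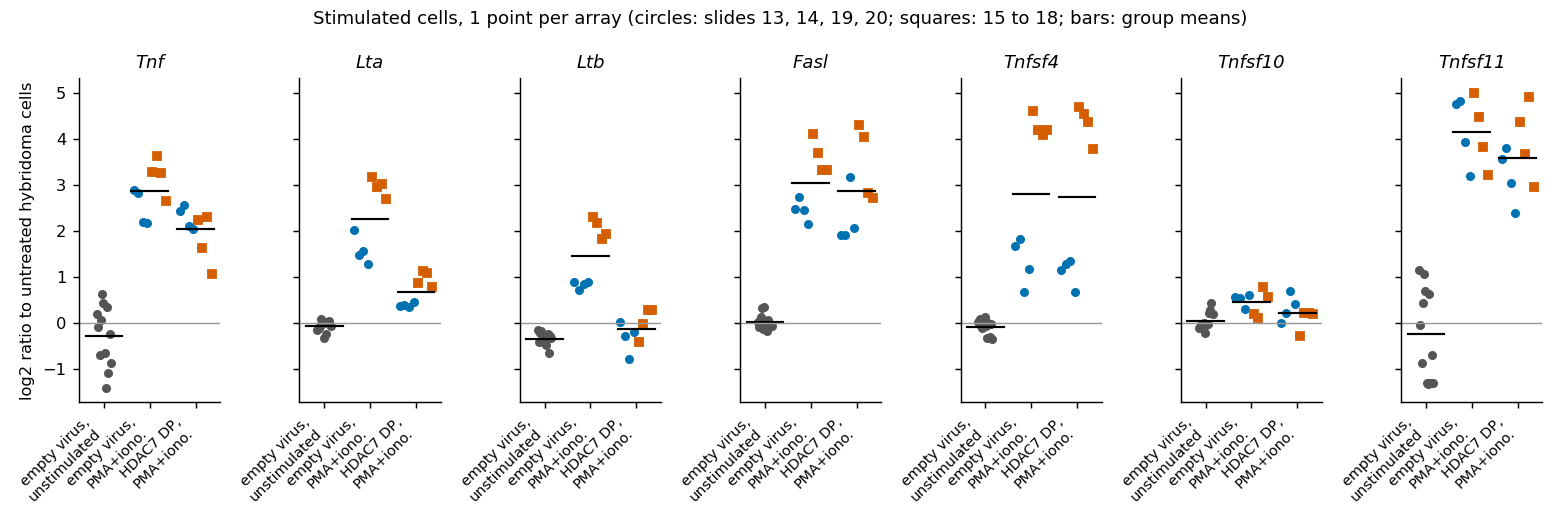
Log2 ratio to untreated hybridoma cells (y axis) of each ligand gene on every array of unstimulated empty virus A (12, grey), stimulated empty virus (8) and stimulated HDAC7 DP (8); blue circles are slides 13, 14, 19 and 20, orange squares slides 15 to 18, and bars are group means. Tnfsf4 forms separate clouds by slide in both stimulated groups, and the HDAC7 DP means of Lta and Ltb are 0.68 and -0.13.

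In stimulated cells with HDAC7 DP, Lta, Ltb and Tnf fell relative to stimulated empty-virus cells, and the other 4 ligand genes were not called. This is 3 of 7 members, beside 1.65% of all probes. Lta and Ltb fell 3.02-fold and 3.00-fold, and Tnf fell 1.76-fold. The ratio of Ltb to untreated cells lay between -0.77 and 0.28 (median -0.10) on the 8 HDAC7 DP arrays, all below the lowest stimulated empty-virus array at 0.72. Its log2 change was -1.59 (SE 0.25, adjusted p = 0.002398, limma). Lta ratios lay between 0.36 and 1.13 (median 0.62), again below every stimulated empty-virus array, with a log2 change of -1.59 (SE 0.28, adjusted p = 0.005359, limma). Tnf ratios lay between 1.07 and 2.58 (median 2.18) and overlapped with those of the empty virus, with a log2 change of -0.81 (SE 0.18, adjusted p = 0.02853, limma).

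By slides, Lta had means of 0.97 (slides 17 and 18) and 0.40 (slides 19 and 20) with HDAC7 DP, both below the lower empty-virus mean of 1.59. Ltb had 0.03 and -0.30 against 0.84, and Tnf 1.81 and 2.30 against 2.53. With the slide pairs as a random block, the adjusted p was 0.01033 for Lta, 0.006628 for Ltb and 0.09733 for Tnf, so the call of Tnf ended (limma). That fit used a single correlation within slide pairs for all probes, 0.16, and not that of each gene. With the arrays of each slide pair averaged, which leaves 2 values per group, 0 of 7 members and 0 of 16463 probes were called, with 2 members at an unadjusted p under 0.05. The call of Tnf also ended without the dye term (-0.81, adjusted p = 0.139, limma), and its change was -0.45 after quantile normalization. Within slide series 14 the changes were -1.76 for Lta, -1.77 for Ltb and -0.80 for Tnf, and within series 15 they were -1.42, -1.40 and -0.82. In either series 0 of 7 members were called by limma, beside 1.17% and 0.164% of all probes, and 4 and 3 members had an unadjusted p under 0.05.

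The interval at 95% of the HDAC7 DP change was wide for Fasl and Tnfsf4, which were not called. Fasl stood at -0.17 (-0.98 to 0.64), with array ratios from 1.91 to 4.31 (median 2.78). Tnfsf4 stood at -0.07 (-1.74 to 1.59), and its means were 4.35 on slides 17 and 18 and 1.12 on slides 19 and 20. Tnfsf10 stood at -0.24 (-0.48 to -0.01) and Tnfsf11 at -0.57 (SE 0.20), with adjusted p-values of 0.3841 and 0.2196 (limma). Tnfsf11 ratios ran from 2.39 to 4.91 (median 3.63). Against untreated cells, which share no stimulus, 5 of 7 members were higher in stimulated HDAC7 DP cells, beside 19.6% of all probes called. They were Tnfsf11 at 3.59, Fasl at 2.87, Tnfsf4 at 2.74, Tnf at 2.05 and Lta at 0.68. Ltb was at -0.13 (adjusted p = 0.5123, limma). Whether HDAC7 DP acts differently on one member than on another was not tested.

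In the RefSeq gene order Ltb, Tnf and Lta are neighbours, with Lst1, Aif1 and Prrc2a on one side and Nfkbil1, Atp6v1g2 and Ddx39b on the other. With PMA and ionomycin none of these 6 flanking genes was called, beside 12.5% of all probes, a share at which few of 6 genes would be. Their log2 changes were 0.02 for Lst1, 0.17 for Aif1, 0.32 for Prrc2a, -0.02 for Nfkbil1, -0.05 for Atp6v1g2 and -0.13 for Ddx39b. With HDAC7 DP, Prrc2a fell by 0.85 (SE 0.20, adjusted p = 0.03691, limma), and the other 5 were not called, beside 1.65% of all probes. Among these, Nfkbil1 stood at -0.67 (SE 0.19, adjusted p = 0.1106, limma) and Ddx39b at -0.25. Lst1 and Atp6v1g2 stood at -0.05 and Aif1 at -0.02. Tnfsf4 and Fasl are also near each other on chromosome 1, on either side of Tnfsf18, which the array's named probes did not cover.

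HDAC7-VP16 raised Tnfsf4 and Tnfsf10 relative to empty virus A, by small amounts: 2 of 7 members, beside 2.72% of all probes. Tnfsf4 rose 1.52-fold (log2 change 0.60, SE 0.13, adjusted p = 0.009608, limma), with ratios from -0.27 to 1.00 (median 0.62) and 8 of 10 arrays above 0. Tnfsf10 rose 1.27-fold (0.35, SE 0.06, adjusted p = 0.003073, limma), with ratios from 0.02 to 0.67 (median 0.44) and 10 of 10 arrays above 0. Both ranges overlapped with those of the empty virus. Against all 16 empty-virus arrays the change of Tnfsf4 was 0.20 (adjusted p = 0.8751) and that of Tnfsf10 0.37 (adjusted p = 9.78e-04, limma); Tnfsf4 itself stood at -0.08 in empty virus A and 1.52 in empty virus B. In slide series 14 alone, where 0.0425% of all probes were called, neither was called (0.46 and 0.25). Tnfsf10 was not called without the dye term (adjusted p = 0.05434), and Tnfsf4 was not in one fit of all groups (adjusted p = 0.5189, limma). The other log2 changes were 0.37 for Tnf, 0.17 for Lta, 0.01 for Ltb, 0.00 for Fasl and 0.45 for Tnfsf11. The interval at 95% was narrow for Fasl (-0.16 to 0.15) and wide for Tnfsf11 (-0.09 to 0.99).

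The spread of Tnf and Tnfsf11 in unstimulated cells followed the dye. In empty virus A the fitted difference between arrays with the test RNA in Cy5 and in Cy3 was 1.29 for Tnfsf11 and 0.74 for Tnf, beside a median size of 0.18 over all probes. In the fit with HDAC7-VP16 it was 1.66 and 0.99, beside a median of 0.20. Stimulated cells showed it too, at 1.18 and 0.63 in the fit of HDAC7 DP with the stimulated empty virus, beside a median of 0.15. In thymocytes 12 h after peptide it was 1.38 for Tnfsf11 and 0.32 for Tnf, beside a median of 0.18. On HDAC7-VP16 arrays all 5 Cy5 values of Tnfsf11 (0.69 to 1.63) lay above 0 and all 5 Cy3 values (-1.35 to -0.55) below it. In a group with as many Cy5 as Cy3 arrays this difference cancels from the mean, and the dye term takes it out of the spread. The ratio of one array of these genes cannot be read alone. Tnfsf10 had the opposite sign, -0.27 in empty virus A.

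**Figure D3:**
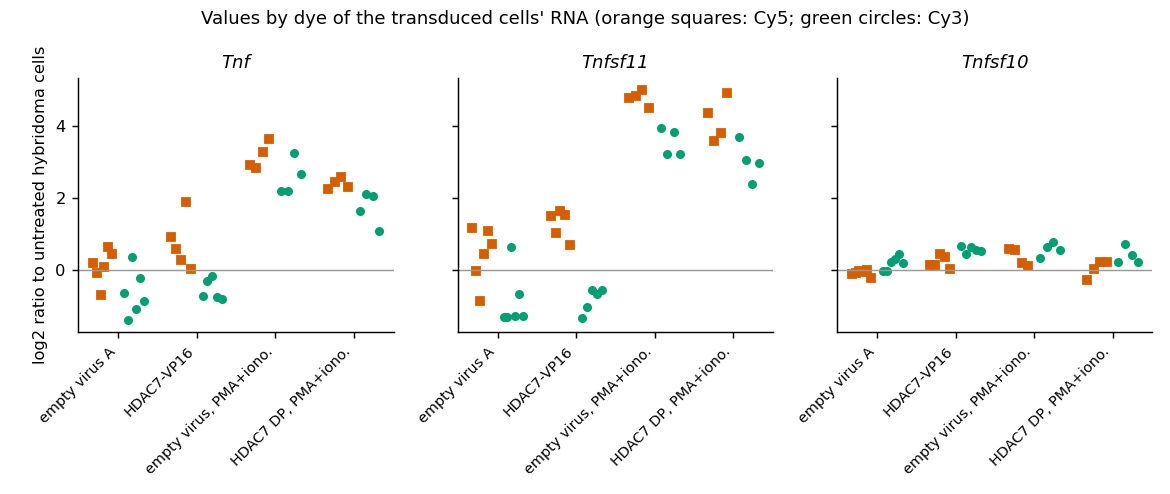
Log2 ratio to untreated cells (y axis) of Tnf, Tnfsf11 and Tnfsf10 in 4 hybridoma groups, 1 point per array, with the transduced cells' RNA in Cy5 (orange squares) or Cy3 (green circles). For Tnfsf11 with HDAC7-VP16 the Cy5 arrays sit between 0.69 and 1.63 and the Cy3 arrays between -1.35 and -0.55.

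Empty virus alone moved Ltb in both sets and Tnfsf4 in one. In empty virus A, Ltb fell by 0.34 on the log2 scale (SE 0.05, adjusted p = 0.00229, limma; 0 of 12 arrays above 0), the single member called beside 1.97% of all probes. With the sign of the 2 unsettled arrays turned, its change was -0.26 and not called, with 0 probes called in all by limma and 1376 at an unadjusted p under 0.05. It was also not called in one fit of all groups (adjusted p = 0.5231) or in slide series 14 alone (-0.28, adjusted p = 0.176, limma). In empty virus B, 2 of 7 members were called, beside 5.72% of all probes. Ltb fell by 0.55 (SE 0.07, adjusted p = 0.007654, limma), with array ratios of -0.58, -0.44, -0.61 and -0.56. Tnfsf4 rose 2.87-fold (1.52, SE 0.09, adjusted p = 2.09e-04, limma), with array ratios of 1.55, 1.25, 1.75 and 1.53. All 4 lay above the highest empty virus A array, at 0.14. After quantile normalization the change of Tnfsf4 was 2.44. The call of Ltb ended without the dye term (adjusted p = 0.1132) and in one fit of all groups (adjusted p = 0.6482, limma).

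MEF2D-VP16 lowered Tnfsf4, and no other member was called: 1 of 7, beside 12.6% of all probes. The 4 Tnfsf4 ratios to untreated cells were -1.90, -1.39, -0.83 and -0.88, all below every empty-virus array. Relative to empty virus B the log2 change was -2.77 (SE 0.22, adjusted p = 9.24e-05, limma), a 6.83-fold fall. The control itself stood at 1.52. Against untreated cells the change was -1.25 (adjusted p = 0.004518), and against all 16 empty-virus arrays it was -1.57 (adjusted p = 0.008003, limma). Tnfsf10 stood at 0.54 (SE 0.17, adjusted p = 0.06586, limma), with ratios of 0.84, 0.60, 0.16 and 0.33. It was called against untreated cells (0.48) and against all 16 controls (0.46). Tnf stood at -0.39, Fasl at -0.20, Tnfsf11 at -0.73, Ltb at -0.06 and Lta at 0.01, with adjusted p-values of 0.1165 to 0.9794 (limma).

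Nur77 raised Tnfsf10, the gene of TRAIL, 4.94-fold over empty virus B, the highest mean ratio of Tnfsf10 among the hybridoma groups. The 4 ratios were 2.42, 1.57, 2.67 and 2.32, against -0.18, -0.04, -0.15 and 0.14 in the empty virus. The log2 change was 2.30 (SE 0.19, adjusted p = 3.43e-05, limma), and it lay between 1.94 and 2.51 under every alternative tried. Over all probes 6.91% were called, and 2 of 7 members. The other was Tnf, which fell by 0.64 (SE 0.15, adjusted p = 0.02515, limma), with ratios of -0.13, 0.25, -0.90 and -0.85 against 0.50, 0.36, 0.16 and -0.07. The call of Tnf ended when empty virus B replicate 1, 3 or 4 or Nur77 replicate 1, 3 or 4 was left out (adjusted p of 0.05464 to 0.08582), without the dye term (0.4145), in one fit of all groups (0.3357) and against all 16 controls, where the change was -0.26 (limma).

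Lta and Ltb stood at -0.41 and -0.53 with Nur77 (adjusted p = 0.05942 and 0.07338, limma) and were called against all 16 controls, at -0.36 and -0.69. The 4 Lta ratios were -0.45, -0.51, -0.43 and -0.26, all below the lowest empty virus B array at -0.14. Tnfsf4 ratios were 1.94, 1.97, 1.95 and 0.96, close to those of empty virus B, with a log2 change of 0.18 (-0.30 to 0.67 at 95%). After quantile normalization it was -0.95 (adjusted p = 0.007175), while against untreated cells it was 1.70 (adjusted p = 0.001609, limma), so its direction depends on scaling and control. Fasl and Tnfsf11 stood at -0.01 and -0.06.

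**Figure D4:**
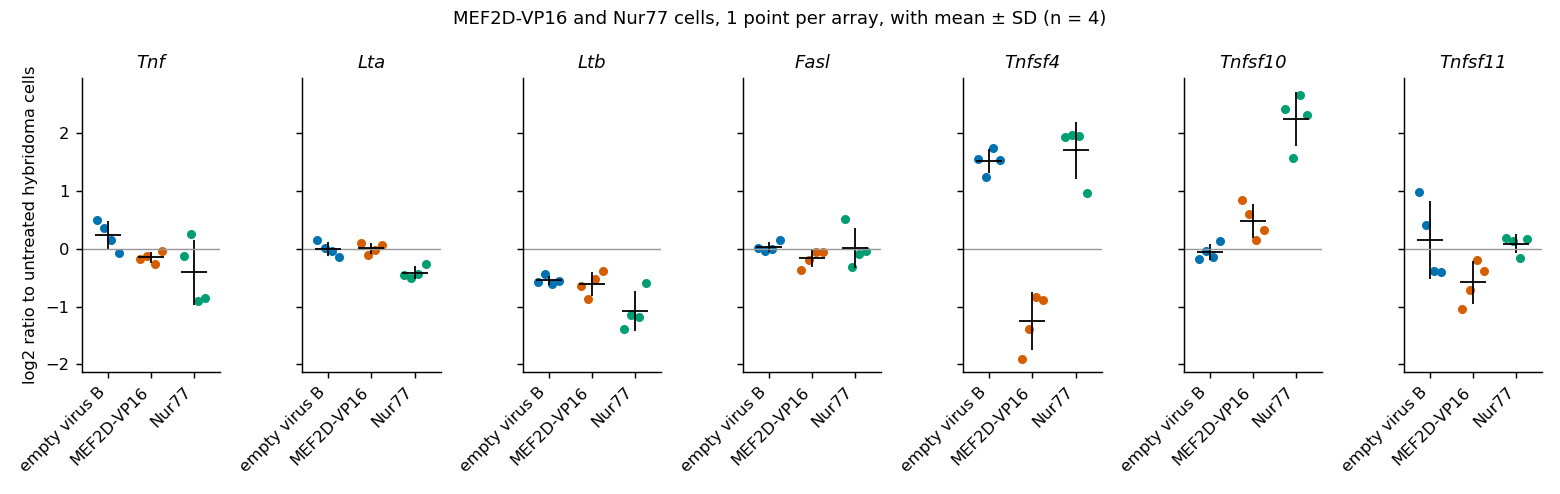
Log2 ratio to untreated hybridoma cells (y axis) of each ligand gene on the 4 arrays each of empty virus B, MEF2D-VP16 and Nur77, with mean ± SD. Tnfsf4 is high with empty virus B and Nur77 (means 1.52 and 1.70) and low with MEF2D-VP16 (-1.25), and Tnfsf10 is high with Nur77 (2.25).

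Across the 7 hybridoma groups, which share untreated cells as partner, the order of the group means differed between members. For Tnf the order was stimulated empty virus (2.87 ± 0.52 SD, n = 8), stimulated HDAC7 DP (2.05 ± 0.49, n = 8), empty virus B (0.24 ± 0.25, n = 4), HDAC7-VP16 (0.09 ± 0.86, n = 10), MEF2D-VP16 (-0.15 ± 0.10, n = 4), empty virus A (-0.28 ± 0.65, n = 12) and Nur77 (-0.41 ± 0.56, n = 4). The last 5 lay within 1 SD of their neighbours. For Tnfsf10 the order began with Nur77 (2.25 ± 0.47) and went on to MEF2D-VP16 (0.48 ± 0.30) and the stimulated empty virus (0.46 ± 0.23), which did not differ beyond their spread. For Tnfsf4 the stimulated groups (2.81 ± 1.62 and 2.74 ± 1.76) were followed by Nur77 (1.70 ± 0.50), empty virus B (1.52 ± 0.21), HDAC7-VP16 (0.52 ± 0.42), empty virus A (-0.08 ± 0.16) and MEF2D-VP16 (-1.25 ± 0.50). For Fasl and Tnfsf11 the stimulated groups stood apart at means of 2.87 to 4.16, and the other 5 means lay between -0.58 and 0.22. For Ltb the stimulated empty virus alone was above 0 (1.45 ± 0.67), and Nur77 was lowest (-1.08 ± 0.34). For Lta the stimulated means were 2.28 ± 0.77 and 0.68 ± 0.33, and Nur77 was again lowest (-0.41 ± 0.11).

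In thymocytes, Ltb, Tnf and Lta were higher in DO11.10 than in mhc -/- mice, and Tnfsf10 was lower: 4 of 7 members, beside 36.3% of all probes, so this share is not far from that of the array. Ltb rose 8.38-fold (log2 change 3.07, SE 0.29, adjusted p = 1.31e-04, limma), with array ratios from 1.25 to 3.91 (median 3.30). Replicate 3 was the low array, and without it the change was 3.41. Tnf rose 2.23-fold (1.16, SE 0.08, adjusted p = 3.83e-05), with ratios from 0.82 to 1.47 (median 1.18), and Lta rose 1.26-fold (0.33, SE 0.06, adjusted p = 0.003011, limma), with ratios from 0.15 to 0.60 (median 0.31). All 6 arrays were above 0 for each of this trio. Of the 6 genes that flank the trio on chromosome 17, Prrc2a (1.80), Nfkbil1 (0.33) and Lst1 (0.24) were also higher. Aif1 was lower (-0.16), and Atp6v1g2 (0.05) and Ddx39b (0.26) were not called. Whether the place of the trio on the chromosome, or a difference between the mice there, has a part in the result was not tested. After quantile normalization the change of Tnf was 0.69, and in one fit of all groups Lta was not called (adjusted p = 0.05475, limma).

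Tnfsf10 fell by 0.26 (SE 0.07, adjusted p = 0.02082, limma), with ratios from -0.50 to 0.09 (median -0.27), and was not called without replicate 3 (-0.23, adjusted p = 0.06974). Fasl, Tnfsf4 and Tnfsf11 stood at -0.08, 0.06 and -0.01. In total thymocytes a difference in the number of cells of a type and in RNA per cell cannot be told apart. Markers of mature single-positive thymocytes were higher in DO11.10 thymocytes for 3 of 5 measured genes and lower for 1, and their median per array ran from 1.41 to 1.84. The direction of these arrays was read with Ccr7, which is on this list, so the higher ratios of the list are no separate result. Markers of double-positive thymocytes were lower for 4 of 7 (median per array -0.86 to -0.08), and markers of dendritic cells higher for 5 of 8 (0.12 to 0.72). The dendritic cell list holds the major histocompatibility complex genes H2-Aa and H2-Ab1. The sources used here do not say which genes the mhc -/- mice lack, so the ratios of these genes need not follow cell number. Granulocyte markers were lower for 5 of 7 (-0.78 to -0.31), NK cell markers lower for 4 of 6 and higher for 2 (-0.39 to -0.04), and T cell markers higher for 4 of 6 and lower for 1 (0.15 to 0.67). Alas2, the single red cell gene measured, was higher at 2.04. The called share was 80% of the mature single-positive list, 57.1% of the double-positive, 62.5% of the dendritic cell, 71.4% of the granulocyte and 83.3% of the T cell list. These stand beside 36.3% of all probes, so many genes of any list would be called here. The part of these cells in the result was not tested.

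Peptide injection raised Tnf and Lta in DO11.10 thymocytes at 3 h and 6 h, and Tnfsf11 at 3 h. At 3 h, 3 of 7 members were called, beside 2.71% of all probes, and at 6 h 2 of 7, beside 4.57%. Tnf ratios to uninjected thymocytes ran from 1.23 to 1.86 (median 1.77) at 3 h and from 0.98 to 1.75 (median 1.16) at 6 h. Tnf rose 3.15-fold at 3 h (log2 change 1.66, SE 0.09, adjusted p = 2.55e-04) and 2.36-fold at 6 h (1.24, SE 0.09, adjusted p = 3.69e-04, limma). Lta ratios ran from 0.59 to 0.99 (median 0.89) at 3 h and from 0.18 to 1.04 (median 0.70) at 6 h. Lta rose 1.78-fold (0.83, SE 0.07, adjusted p = 0.002371) and 1.64-fold (0.72, SE 0.11, adjusted p = 0.0109, limma). All 6 arrays were above 0 for both genes at both times.

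Tnfsf11 rose 1.36-fold at 3 h (0.44, SE 0.08, adjusted p = 0.03133, limma), with ratios from 0.14 to 0.73 (median 0.41), and was not called in one fit of all groups (adjusted p = 0.3352, limma). At 6 h it stood at 0.29 (adjusted p = 0.06888, limma), and it was called there with slide series as a block (0.33). The remaining 4 members stood between 0.09 and 0.50 at 3 h, with Ltb at 0.50, Fasl at 0.37, Tnfsf4 at 0.36 and Tnfsf10 at 0.09. At 6 h Ltb and Tnfsf4 stood at 0.27 and 0.45. With slide series as a block both were called (0.40 and 0.55), so that 5 of 7 members passed, beside 8.46% of all probes. That fit weighs series 13 and the other slides equally, so its values lie midway between the means of these sets. It also takes the difference between the sets out of the spread. At 6 h the 2 series 13 arrays had means of 0.78 for Ltb and 0.84 for Tnfsf4, and the other 4 slides means of 0.02 and 0.26. Markers of macrophages were lower for 2 of 8 genes at 3 h and 4 of 8 at 6 h, and markers of thymic epithelium for 4 and 5 of 9, beside 2.71% and 4.57% of all probes called. Macrophage medians per array ran from -0.37 to -0.12 at 3 h and epithelial medians from -0.90 to -0.31. The red cell gene Alas2 was lower at both times, at -1.32 and -0.81. Their part in the result was not tested.

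At 12 h, 0 of 7 members were called by limma, beside 3.38% of all probes, and 3 of 7 had an unadjusted p under 0.05. Tnf ratios ran from 0.36 to 1.46 (median 0.60), with a log2 change of 0.68 (SE 0.14, adjusted p = 0.0555). Replicate 1 was the high array, and without it Tnf was called at 0.52 (adjusted p = 0.02073, limma). Lta ratios ran from -0.02 to 0.81 (median 0.03), with a change of 0.15 (adjusted p = 0.5253, limma). Over the 3 times an F test called Tnf (adjusted p = 0.005679) and Lta (adjusted p = 0.02921) among the 7 members, beside 4.09% of all probes (limma). Between 12 h and 3 h Tnf fell by 0.98 (SE 0.16, adjusted p = 0.001932) and Lta by 0.68 (SE 0.16, adjusted p = 0.0179), where 4.87% of probes were called. From 3 h to 6 h, where 0.0121% of probes were called, and from 6 h to 12 h, where 3.18% were, 0 of 7 members were called by limma, with 1 and 3 members at an unadjusted p under 0.05. Tnf stood at -0.42 and -0.56 in these steps and Lta at -0.12 and -0.57. After quantile normalization both were called from 6 h to 12 h, at -1.01 and -0.94.

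Slide series and time were mixed: all 6 arrays at 3 h, but 2 of 6 at 6 h and at 12 h, came from slide series 13. In the titles 4 slide labels of this series stand at 2 times each, at 3 h and again at 6 h or 12 h, and whether these are the same slides is not stated. With the slide label as a random block, a fit added after seeing the data, the difference between 12 h and 3 h was -0.99 for Tnf (adjusted p = 0.002295) and -0.70 for Lta (adjusted p = 0.01741, limma). Within series 13 alone the difference between 12 h and 3 h was -0.62 for Tnf (adjusted p = 0.1709) and -0.44 for Lta (adjusted p = 0.428, limma), and the F test called neither (adjusted p = 0.39 and 0.5946). At 12 h the series 13 arrays had a Tnf mean of 1.04 and the other 4 slides a mean of 0.50.

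Ltb at 12 h divided by slide series. Both series 13 arrays stood at 0.86 and 0.77, and the other 4 slides between -2.98 and -2.27. The fit over all 6 gave -1.52 (SE 0.65, adjusted p = 0.2293), the other 4 slides alone gave -2.68 (adjusted p = 1.83e-05), and series as a block gave -0.93 (adjusted p = 0.001771, limma). The value with series as a block lies midway between the means of series 13 and of the other slides, where no array stood. With that block Tnf (0.77) and Tnfsf4 (0.69) were also called, so that 3 of 7 members passed, beside 15.4% of all probes. Tnfsf4 at 12 h had means of 1.32 on series 13 and 0.05 on the other slides. Granulocyte and red cell markers divided in the same way, but not every marker list did. The T cell marker median was -0.31 and 0.00 on the series 13 arrays and between -0.10 and 0.11 on the others. The granulocyte marker median was 1.27 and 0.64 on the series 13 arrays and between -0.33 and 0.06 on the others. Alas2 was 0.01 and 0.71 on series 13 and between -2.24 and -1.70 on the others. The part of these cells and of the slide series in the result was not tested. Fasl at 6 h had 1 high array, replicate 3 at 2.19, and the other 5 lay between -0.02 and 0.43.

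**Figure D5:**
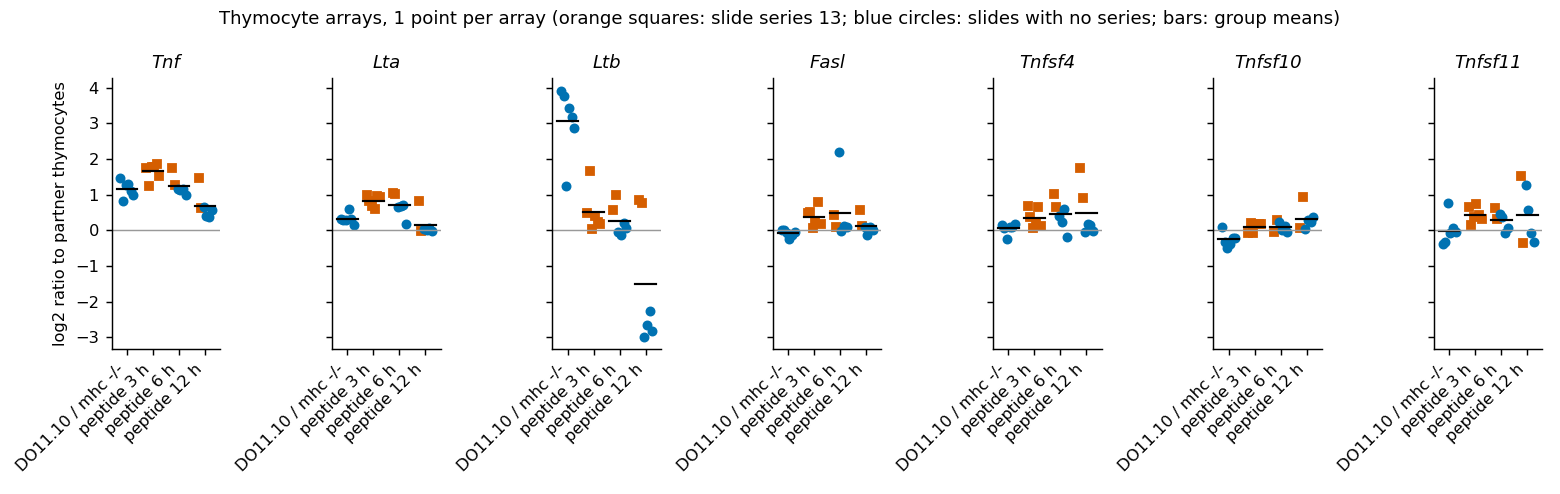
Log2 ratio to the partner thymocytes (y axis) of each ligand gene in the DO11.10 over mhc -/- comparison and 3 h, 6 h and 12 h after peptide, 6 arrays each; orange squares are slide series 13, blue circles slides with no series, bars group means. At 12 h Ltb stands at 0.77 and 0.86 on series 13 and between -2.98 and -2.27 on the other slides.

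The pathway around the ligands was read from 4 lists. Of 9 other TNF superfamily ligands measured, 1 was called with PMA and ionomycin, Cd70, which was higher at 0.81, beside 12.5% of all probes. With MEF2D-VP16 and Nur77, Tnfsf14, the gene of LIGHT, was lower, at -0.66 and -0.51. In DO11.10 over mhc -/- thymocytes 4 were higher, led by Cd70 at 2.59, Cd40lg at 1.47 and Tnfsf14 at 1.10, and 1 was lower (55.6% of the list, beside 36.3% of all probes). At 3 h and 6 h after peptide 0 of 9 were called by limma (1 at each time at an unadjusted p under 0.05). With 2.71% and 4.57% of all probes called, 0 of 9 is near the share of the array. At 12 h Cd40lg, the gene of CD40 ligand, was lower, at -0.81, beside 3.38% of all probes called. The median of this list stayed between -0.15 and 0.16 in the 11 comparisons.

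Of 25 measured receptors, 4 were higher and 1 lower with PMA and ionomycin (20% of them, beside 12.5% of all probes). Tnfrsf12a, the receptor of TWEAK, rose by 2.19, Tnfrsf4, the receptor of the Tnfsf4 product, by 0.96 and Tnfrsf1b, a receptor of TNF, by 0.89. With HDAC7 DP, Cd27 fell by 0.76 and Tnfrsf19 by 0.86 (8%, beside 1.65% of all probes). Nur77 raised 3, among them Tnfrsf1b (0.98) and Cd27 (0.91), and lowered 3, among them Tnfrsf8 (-1.77), which makes 24% beside 6.91% of all probes. Peptide raised 4 receptors at 3 h, 6 at 6 h and 4 at 12 h (16%, 24% and 16%, beside 2.71%, 4.57% and 3.38% of all probes). Tnfrsf4 rose by 2.47, 3.00 and 3.08 at these times and Tnfrsf18, the receptor GITR, by 1.40, 1.55 and 1.89. The ligand gene Tnfsf4 was not called at any of them. With slide series as a block, which weighs series 13 and the other slides equally, it was called at 6 h (0.55) and 12 h (0.69). In the comparison with mhc -/- thymocytes 5 were higher and 5 lower, with Cd27 at 1.15; these are 40% of the receptors, close to the 36.3% of all probes.

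Of 9 measured NF-kB genes, 8 were higher with PMA and ionomycin and 1 lower, with a median of 1.48, beside 12.5% of all probes called. Rel rose by 2.25, the inhibitor gene Nfkbia by 2.07 and Nfkb2 by 1.91. With HDAC7 DP 0 of 9 were called by limma, beside 1.65% of all probes. Of the 9, 3 had an unadjusted p under 0.05, and the median of the list was -0.44. Peptide raised 4 at 3 h (Nfkb2 at 1.51 and Rel at 1.47), 5 at 6 h and 2 at 12 h. These are 44.4%, 55.6% and 22.2% of the list, beside 2.71%, 4.57% and 3.38% of all probes. Of 19 adaptors and enzymes, 4 were higher and 2 lower with PMA and ionomycin (31.6%, beside 12.5% of all probes). Traf1 led at 3.04, and Birc3 stood at 0.68. Peptide raised Traf1 by 0.80, 0.78 and 1.07 and Birc3 by 1.12, 0.81 and 1.06 at 3 h, 6 h and 12 h.

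Over all 74 arrays the log2 ratios of Fasl and Tnfsf11 correlated at r = 0.89, Tnf and Tnfsf11 at 0.83, Tnf and Lta at 0.81 and Fasl and Tnfsf4 at 0.80. Ltb correlated at 0.47 with Tnf and 0.51 with Lta. Tnfsf10 correlated with the other members at -0.29 to 0.16. The points share partner RNA within the hybridoma and thymocyte sets, and the 16 stimulated arrays carry much of the range, so these values are descriptions. The genes most like each member by the same measure were Cd274 (0.86), Egr2 (0.85) and Klf10 (0.84) for Tnf and Nab2, Il13 and Egr2 (each 0.85) for Lta. For Ltb they were Cyb561d2 (0.89), Ier2 (0.86) and Ssr2 (0.85), and for Fasl Ccl1, Srxn1 and Tubb6 (each 0.92). For Tnfsf4 they were Enc1 (0.91), Slc30a1 (0.88) and the cytokine gene Il3 (0.87), for Tnfsf10 Napb (0.87), Prm2 (0.83) and Ptprz1 (0.81), and for Tnfsf11 Klf10 (0.92), Fasl (0.89) and Srxn1 (0.88).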

How the data were processed

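The deposited log2 ratios of the value table were used as given. The labels' protocols say that total RNA was labelled by aminoallyl-dUTP and NHS-Cy3 or NHS-Cy5. The log base is taken as 2 from the range of the values, and the sources used here do not give the scanner, background correction, normalization or direction. The titles gave group, slide and dye, since the dye fields of the labels read Cy3 on either channel. One HDAC7-VP16 array, replicate 1, has a source name for the empty virus but a title for HDAC7-VP16. The number of per-sample columns not used was 0.

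Each array was centred on its median. limma 3.58.1 (R 4.3.3, statmod 1.5.0) was fitted per probe with the dye orientation as a term, over all 16463 probes, with Benjamini-Hochberg adjustment and a threshold of 0.05. The fit was tested on simulated data. Of the probes, 14551 had 1 gene symbol, 6 several and 1906 none, and 14272 matched RefSeq through their Entrez identifier. The highest correlation between any pair of arrays was 0.93. Figures were drawn with matplotlib 3.10.9.

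All 7 ligand genes were named, with up to 3 called genes per list and comparison by size of change, and the 3 genes most correlated with each ligand gene. The marker genes Ccr7 and Alas2 and the genomic neighbours were named after their values were seen. The members and lists were chosen with earlier results of these data known. Alternatives covered the dye term, centring, scaling, control, slide series, slide pair, pooled fit and left-out arrays. The number of arrays limits the precision, and with no spot intensities analysed the signal over background is unknown.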

Additional observations from a re-analysis of the deposited data

Results flagged for a closer look

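Of 70 sets of 4 to 10 arrays examined for the ligand genes, 8 had 1 array far from the others by Dixon's criterion, where chance gives about 1 in 20. At 12 h after peptide, replicate 1 stood apart for Tnf (log2 ratio 1.46, nearest other array 0.64), Lta (0.81, nearest 0.06) and Fasl (0.56, nearest 0.13). Replicate 1 came from slide series 13, as did replicate 2. At 3 h, replicate 2 stood apart for Ltb (1.66, nearest 0.49), and at 6 h replicate 3 for Fasl (2.19, nearest 0.43). In DO11.10 over mhc -/- thymocytes, replicate 3 stood apart for Tnfsf4 (-0.24, nearest 0.05), and it was also the lowest array for Ltb (1.25). With Nur77, replicate 4 stood apart for Tnfsf4 (0.96, nearest 1.94) and replicate 3 for Tnfsf11 (-0.16, nearest 0.14).

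The effect of peptide differed between times for Tnf (F test adjusted p = 0.005679, limma) and Lta (adjusted p = 0.02921), with higher log2 ratios at 3 h than at 12 h. Slide series moved with time, and its part in the result was not tested beyond the fit within series 13.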

How the results depend on the processing

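Of the alternative values of single ligand genes, 744 kept their direction and side of the threshold or moved by less than the spread between arrays, 41 lost and 33 gained a call, 30 moved further and 6 reversed. With PMA and ionomycin, and in the comparisons of DO11.10 with mhc -/- thymocytes and of 3 h after peptide, the number of members called stayed within 1.5 times under every alternative. Without the dye term the number called was 1 with empty virus B, HDAC7-VP16, Nur77 and peptide at 12 h. In one fit of all 11 groups it was 0 with empty virus A, 1 with empty virus B, HDAC7-VP16 and Nur77, 2 with MEF2D-VP16 and 3 at 12 h. With all 16 empty-virus arrays as control it was 1 with HDAC7-VP16, 2 with MEF2D-VP16 and 4 with Nur77. Against untreated cells it was 4 with MEF2D-VP16, 5 with Nur77 and 5 with HDAC7 DP, beside 18.3%, 13.2% and 19.6% of all probes. The HDAC7 DP fit asks another question, since the partner was not stimulated, and there Tnf (2.05), Lta (0.68), Fasl (2.87), Tnfsf4 (2.74) and Tnfsf11 (3.59) reversed. Quantile normalization gave 2 at 12 h and reversed Tnfsf4 with Nur77 (-0.95). In slide series 14 alone 0 were called by limma with empty virus A (1 member at an unadjusted p under 0.05), HDAC7-VP16 (1) and HDAC7 DP (4). These stand beside 0.249%, 0.0425% and 1.17% of all probes. In series 15 alone 0 were called with HDAC7 DP (3), beside 0.164% of all probes. With the arrays of each slide pair averaged 0 were called with HDAC7 DP (2 at an unadjusted p under 0.05), where 0 of all probes were called. With the sign of the 2 unsettled arrays turned 0 were called with empty virus A (2), where again 0 of all probes were called. Slide series as a block gave 5 at 6 h and 3 at 12 h, beside 8.46% and 15.4% of all probes. Series 13 alone gave 0 at 6 h (5 at an unadjusted p under 0.05), where 0 of all probes were called, and 0 between times. The other slides alone gave 2 at 12 h, beside 24.7% of all probes. Leaving out 1 array gave 1 to 2 with MEF2D-VP16 and 1 to 3 with Nur77. Chosen after seeing the data, the slide label as a random block between times gave 2 calls (Tnf and Lta), leaving out replicate 1 at 12 h gave 1, and leaving out the array that stood apart gave 3 in DO11.10 over mhc -/-, 3 at 3 h and 2 at 6 h. Fits with fewer arrays or a control of another state have other precision or ask another question; otherwise the cause was not tested. No paired analysis was possible because the replicate numbers only name arrays within a group, in accession order, and match no array of one group to an array of another. Fits grouped by slide series or slide pair are another matter, and are given above.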
